A study of Mus musculus with 12 samples.

Results

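The comparison set spheres grown from astrocytes (A-iSC, 3 libraries) against cells from the brain that were the design's positive controls (P56-NSC, 3 libraries), gene by gene, in RNA sequencing of C57BL/6 mice. The labels describe A-iSC as astrocytes kept for 5 days of incubation as 3D spheres, and P56-NSC as neural progenitor cells derived from the brain. They name no sorting step, medium or passage for either group, and the meaning of "P56" is not spelled out in them. Genes entered when the deposited table gave them a name and at least 1 FPKM (a level scaled by gene length and library size) in at least 3 of the 6 libraries. Of 55421 named genes 14175 passed, 12481 of them (88.05%) protein-coding. Of the 14175, 11231 reached 1 FPKM in all 6 libraries, 543 passed through the 3 A-iSC libraries alone, 1164 through the 3 P56-NSC libraries alone, and 1237 through other mixtures. The series also holds astrocytes before incubation (AST, 0 days) and a second group of brain cells (P0-NSC), which appear here only as levels set beside the comparison.

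Neural stem cells of the adult brain share much of their expression with astrocytes: both can carry the filament protein GFAP and the transcription factors SOX2 and SOX9. Nestin, cell cycle genes and proneural factors are used to tell activated stem cells from resting astrocytes. Myelin proteins, synaptic proteins, haemoglobins and transthyretin mark oligodendrocytes, neurons, red blood cells and choroid plexus. Cells with macrophage character, the microglia, are a known companion of astrocyte cultures and are recognised by complement C1q, lysozyme and TYROBP.

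The recovered reads numbered 18288177 to 23769070 in A-iSC and 21380187 to 22285109 in P56-NSC, so that a single read per 1 kb of gene stood for 0.0373 to 0.0623 FPKM. Whether a group's 3 libraries are separate cultures or animals is not in the labels, and p-values may therefore reflect technical spread alone. On the first principal component, which held 91.5% of the variance of log2 values, the groups were apart. The second held 5.46% and set A-iSC 3, at -36.2, apart from A-iSC 1 and 2, at 19 and 14.1. Deviations of a library from its group mean followed gene length, with Spearman correlations of -0.298, -0.251 and 0.337 in A-iSC 1 to 3. In P56-NSC 1 to 3 they were 0.0604, 0.146 and -0.198. Genes of the mitochondrial genome held 3.05% to 7.03% of reads in A-iSC and 16.5% to 17.6% in P56-NSC. The stem cell label of P56-NSC and its markers went different ways: nestin was at 3.91, 3.48 and 3.90 FPKM and Mki67 at 1.48, 1.75 and 1.36 FPKM, while the myelin gene Mbp was at 4994, 5159 and 5659.7 FPKM. For that reason the group is called by its label only, and no cell type is assigned to it.

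A gene was called when limma's adjusted p was below 0.05 and the difference of log2(FPKM + 1) was at least 1, a 2-fold difference. A gene that passed the adjusted p with a smaller difference is said to be higher or lower under 2-fold. Differences are given as A-iSC minus P56-NSC with their standard error, and they understate the fold of genes near 1 FPKM. Of the 14175 genes, 3795 (26.8%) were called, 1408 higher in A-iSC (9.93%) and 2387 lower (16.8%). Without A-iSC 3 the count was 4116. At any fold 8711 genes (61.5%) passed, 4316 higher (30.4%) and 4395 lower (31.0%). The 2 groups did not overlap for 9742 genes (68.7%). For 3700 genes (26.1%) the 95% confidence interval of the difference lay wholly within 1.5-fold. Called genes were higher in A-iSC in 37.1% of cases. This split depended on how libraries were scaled, because it was 65.5% with scaling by total reads, 55.6% by total reads outside the mitochondrial genome and 45.7% with quantile normalization. Those scalings moved the median of all genes by 0.45, 0.30 and 0.10 on the log2 scale. Of the 1408 higher genes, 340 had passed the minimum only in A-iSC, and 915 of the 2387 lower genes only in P56-NSC. Members of a list that passed the minimum through 1 group alone had to be higher in that group. Some genes named below were lower under 2-fold with scaling by total reads, with differences of -0.48 (Tubb3) to -0.99 (Aldoc). They were Olig2, Tubb3, Aldoc, Hopx, Hes5, Clu, Cd55, Cspg4, Sparc, Col1a2, Lamb1, Id4, Fth1, Zeb2, Zic2, Dlx1 and Lhx2.

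The largest differences ran toward P56-NSC: 69 genes were called lower at 32-fold or more against 11 called higher. At 8-fold or more the numbers were 341 and 141. The plot of mean levels shows the same lean, with myelin, neuron, choroid plexus and haemoglobin genes far below the diagonal.

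**Figure D1:**
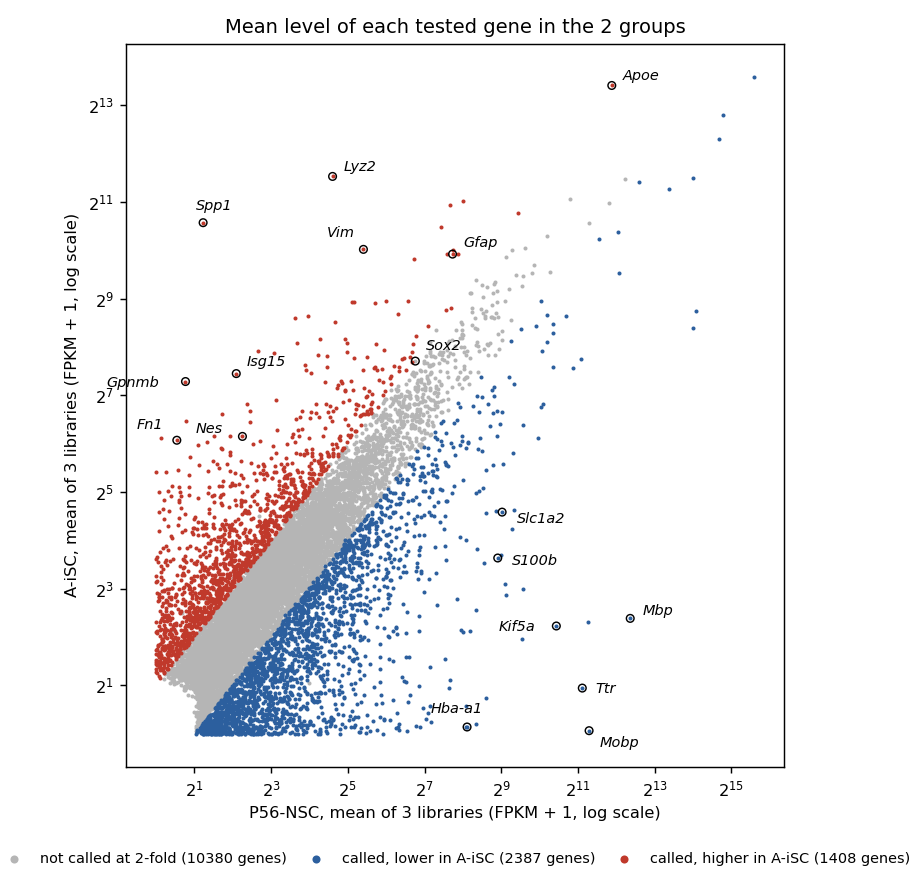
Mean level of each of the 14175 tested genes in P56-NSC (horizontal axis) and A-iSC (vertical axis), both FPKM + 1 on log scales, 3 libraries a group. Red points (1408) were called higher in A-iSC, blue points (2387) lower, and grey points were not called at 2-fold; Spp1 and Lyz2 stand highest above the diagonal, and Mobp, Ttr and Mbp lie farthest under it.

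The gene furthest above P56-NSC was Spp1, which encodes the secreted glycoprotein osteopontin. It was at 1847, 1478 and 1242 FPKM in A-iSC and at 1.15, 1.06 and 1.81 FPKM in P56-NSC, a difference of 9.34 ± 0.18 (limma adjusted p = 6.58e-08). Lyz2, the lysozyme of macrophages, followed at 3672, 2724 and 2475 FPKM against 20.1, 15.2 and 34.5 FPKM. The lysosomal glycoprotein gene Gpnmb stood at 187, 151 and 127 and 0.884, 0.603 and 0.615 FPKM. In each of these genes every A-iSC library exceeded every P56-NSC library by more than 10-fold. Fibronectin (Fn1) was at 66.3 ± 12 FPKM (SD, n = 3) in A-iSC and 0.454 ± 0.116 FPKM in P56-NSC, the chemokine Ccl5 at 87.2 ± 41.8 and 0.704 ± 0.394 FPKM, and the lectin gene Lgals3 at 240.1 ± 86.2 and 5.35 ± 3.78 FPKM. Timp1, an inhibitor of matrix metalloproteinases, was at 41.7 ± 9.55 and 0.203 ± 0.0670 FPKM. Ripply1, which encodes a transcriptional repressor known from somite formation, was at 47.8, 71.8 and 84.4 FPKM in A-iSC and at 0.142, 0.0768 and 0.0749 FPKM in P56-NSC. Elobl was at 60.3, 42.7 and 21.5 FPKM in A-iSC and is listed at 0 in all 3 P56-NSC libraries, so no fold is given. Other genes among the 15 of largest difference were Clec4d, a myeloid lectin receptor (31.2 against 0.0607 FPKM), Wfdc17 (52.2 against 0.834) and the matrix protein gene Ecm1 (43.1 against 0.492). The remaining ones, Isg15, Bst2 and Irf7, are described with the interferon genes.

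Myelin genes made up the opposite extreme. Of 19 myelin and mature oligodendrocyte genes tested, 18 were lower in A-iSC and 0 higher, with a median difference of -6.15 against 0.03 over all 14175 genes. The minimum had been reached through P56-NSC alone by 7 of the 19, which therefore had to differ. Mbp, myelin basic protein, was at 4.08, 4.45 and 4.16 FPKM in A-iSC and 4994, 5159 and 5659.7 FPKM in P56-NSC, a difference of -9.98 ± 0.11 (limma adjusted p = 1.42e-08). Mobp was at 0.0435, 0.0430 and 0.0490 FPKM against 2419.6, 2394 and 2704 FPKM. Neither gene came near the P56-NSC level in any A-iSC library. Mal, Mog, Mag and Tspan2 were at 2.91, 0.101, 0.493 and 0.936 FPKM in A-iSC and at 741, 271, 271 and 199 FPKM in P56-NSC. The smallest differences were those of Trf, at 143 ± 15.7 FPKM in A-iSC against 452 ± 29.3 FPKM, of Cnp, at 54.7 ± 11.5 against 629 ± 45.7 FPKM, and of the chaperone Cryab, which was not called except without A-iSC 1 (-1.20), at 234, 183 and 71.8 against 268, 235 and 293 FPKM. The 19 genes summed to 477 FPKM in A-iSC and 15727 FPKM in P56-NSC. In bulk RNA, fewer cells of a type and less RNA per cell cannot be told apart.

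Genes of oligodendrocyte precursors were lower too, by smaller differences. Of 14 tested, 11 were lower and 1 higher, with a median of -1.71, and 2 had passed through P56-NSC alone. Pdgfra, the growth factor receptor that defines these precursors, was at 5.50 ± 1.43 FPKM in A-iSC and 19.1 ± 1.92 FPKM in P56-NSC. Olig2, a lineage transcription factor, was at 38.7, 36.3 and 32.7 FPKM against 79.4, 75.2 and 81.8 FPKM, a difference of -1.12 ± 0.10 (limma adjusted p = 6.62e-05), and Sox10 at 11.2 ± 2.03 against 72.4 ± 6.43 FPKM. Olig2 in A-iSC was thus above 30 FPKM in each library, where Mobp was under 1 FPKM. Bcas1, Gpr17 and Enpp6, which mark oligodendrocytes that are starting to make myelin, were at 6.33, 1.85 and 0.217 FPKM against 555, 34 and 12.2 FPKM. The exception was C1ql1, a secreted C1q-like protein, at 92.2, 119.6 and 89.9 FPKM in A-iSC and 21.4, 21.4 and 20.8 FPKM in P56-NSC. Lhfpl3 had an interval within 1.5-fold (14.4 against 18 FPKM).

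Neuronal genes were lower in A-iSC almost throughout. Of 24 mature neuron genes tested, 23 were lower and 0 higher, with a median of -2.90; 13 of the 24 had passed the minimum through P56-NSC alone and so had to differ. Kif5a, a neuronal kinesin, was at 3.54, 4.21 and 3.31 FPKM in A-iSC and 1328, 1641 and 1189 FPKM in P56-NSC (difference -8.20 ± 0.15). Camk2a, a kinase of the postsynaptic density, was at 0.658, 0.676 and 0.645 FPKM against 382, 419 and 372 FPKM, and Nrgn, neurogranin, at 0.229 against 129 FPKM. Snap25, a core protein of vesicle release, was at 0.392 ± 0.163 and 33.7 ± 2.99 FPKM. Tubb3, the tubulin used to stain young and mature neurons, differed less, at 46.3, 40.0 and 27.3 FPKM in A-iSC and 75.4, 85 and 69.9 FPKM in P56-NSC (difference -1.03 ± 0.20, limma adjusted p = 0.00277). Its 2-fold call was lost without A-iSC 3 (-0.82) or P56-NSC 2 (-0.95). Pvalb, parvalbumin, was higher in A-iSC under 2-fold (26.5 against 15.5 FPKM), and at 2-fold without P56-NSC 2 (1.05). Of 24 synapse and vesicle genes, which include Snap25, Syt1 and Syn1, 19 were lower and 0 higher, and 7 had passed through P56-NSC alone. Cplx1, complexin, was at 0.735 against 96.8 FPKM, and the postsynaptic scaffold Shank1 at 0.267 against 35.3 FPKM. Of 18 glutamate and GABA receptor genes, 14 were lower and 0 higher, and 8 had passed through P56-NSC alone. Grin2c and Grm3, glutamate receptors that astrocytes also express, were at 0.541 ± 0.0983 and 0.780 ± 0.511 FPKM against 36.5 ± 0.642 and 35.6 ± 1.02 FPKM. The AMPA receptor Gria1 and the GABA receptor Gabbr2 were at 2.85 and 1.31 FPKM against 45.5 and 19.2 FPKM.

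Markers of tissue that surrounds the ventricles and of blood followed the same direction. Of the choroid plexus genes 12 were tested, 8 of which had passed through P56-NSC alone, and 12 were lower in A-iSC, with a median of -2.64. Ttr, transthyretin, was at 0.460, 1.56 and 0.755 FPKM in A-iSC and at 2077, 1452 and 3119.7 FPKM in P56-NSC; P56-NSC 3 was the highest and P56-NSC 2 the lowest. The choroid genes Kl, Clic6 and Enpp2 were at 0.00417, 0.0330 and 3.36 FPKM against 7.63, 20.7 and 289.6 FPKM. The 5 red blood cell genes tested had passed through P56-NSC alone, and 5 were lower. Hba-a1, an alpha globin, was at 0.306, 0 and 0 FPKM against 253, 220.1 and 353 FPKM, and Hbb-bt is listed at 0 in all A-iSC libraries and at 24.4, 23.2 and 32.6 FPKM in P56-NSC. Of 19 ependymal and motile cilia genes 12 were lower and 0 higher, with a median of -1.54, and 3 had passed through P56-NSC alone. The cilia genes Tmem212 and Sntn were at 2.0 and 0.103 FPKM against 96.4 and 12.8 FPKM, but Foxj1, the transcription factor of ciliated cells, was at 39.9, 40.6 and 52.2 FPKM in A-iSC and 63.6, 56.2 and 66 FPKM in P56-NSC, under 2-fold. Blood vessel markers were scarce in both groups: 4 of 14 endothelial genes passed the minimum, 1 through P56-NSC alone. Of the 4, 1 was called, Cldn5, a tight junction gene, at 0.0584 against 1.99 FPKM. Leaving out A-iSC 3, P56-NSC 1 or P56-NSC 2 raised that count to 2. Of 10 fibroblast and mural genes tested, 3 were higher and 4 lower, against 9.93% and 16.8% of all genes. Acta2, S100a4 and Col1a1 were higher, and Thy1, Pdgfra, Cspg4 and Col1a2 lower. Thy1 is also in the mature neuron list, and Pdgfra and Cspg4 are in that of oligodendrocyte precursors. Of the 10, 1 had passed through A-iSC alone and 1 through P56-NSC alone.

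**Figure D2:**
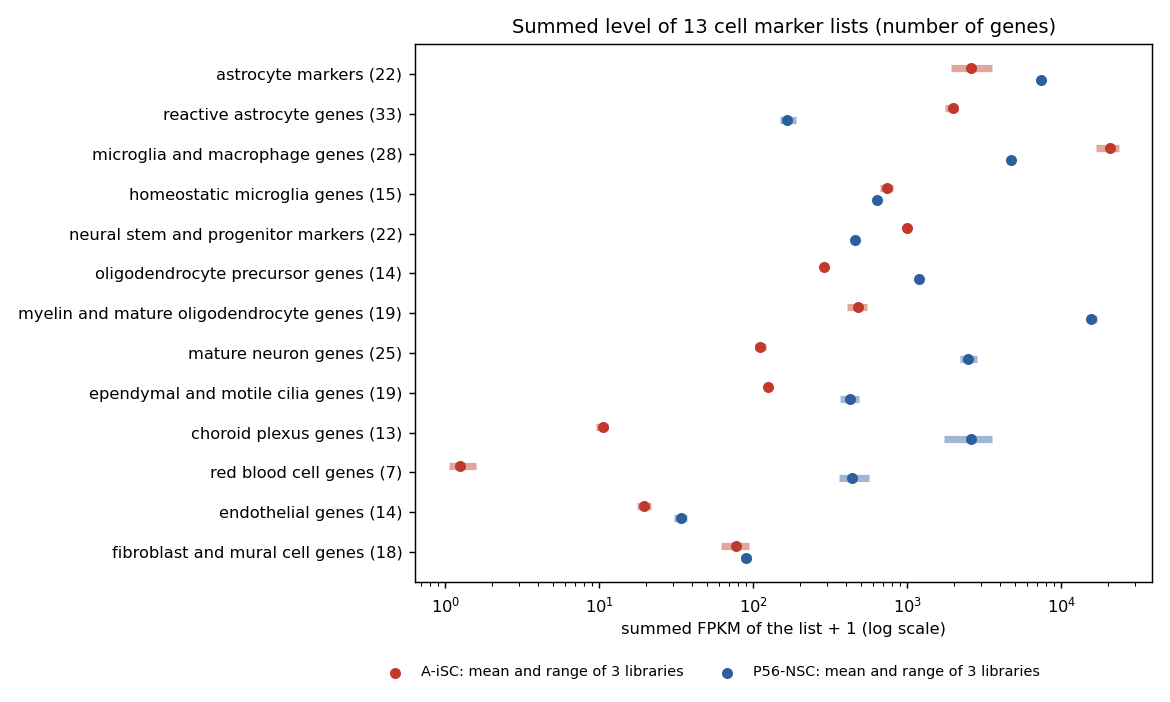
Summed FPKM + 1 (log scale) of 13 cell marker lists, all listed genes with a row included whether or not they passed the minimum; points are the mean of 3 libraries and bars run from the lowest to the highest library. The microglia and macrophage sum was 20606 in A-iSC and 4735 in P56-NSC, of which Apoe alone held 10899 and 3777. The myelin sum was 477 and 15727, and the red blood cell sum 0.24 and 438.

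Most astrocyte markers were lower in A-iSC than in P56-NSC. Of 22 tested, 17 were lower and 1 higher, with a median of -1.94, and the list summed to 2582 FPKM in A-iSC and 7341 FPKM in P56-NSC. The 1 higher gene was Gfap, the intermediate filament of astrocytes, at 658, 769 and 1483 FPKM in A-iSC and 207, 198 and 228 FPKM in P56-NSC, a difference of 2.10 ± 0.29 (limma adjusted p = 0.000572). S100b, a calcium-binding protein, was at 12, 10.3 and 12 FPKM against 466, 482 and 490.4 FPKM, and Slc1a2, the main glutamate transporter of astrocytes, at 14.7, 17.8 and 36.6 FPKM against 501, 552 and 505 FPKM. For both, the highest A-iSC library lay more than 10-fold under the lowest P56-NSC library. Gjb6, a gap junction gene, and Slc6a11, a GABA transporter, were at 0.989 ± 0.424 and 4.91 ± 2.36 FPKM against 114 ± 9.61 and 323 ± 72 FPKM. Glul, glutamine synthetase, was at 216 ± 62.3 FPKM in A-iSC and 2145 ± 103 FPKM in P56-NSC, and Aldoc, the aldolase of astrocytes, at 406 ± 94.9 and 1167 ± 75.9 FPKM. Slc1a3, the glutamate transporter of radial glia and astrocytes, was at 125 ± 70.7 and 359 ± 13.4 FPKM.

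A few astrocyte genes were not called lower. Sox9, a glial transcription factor, was at 38, 37.4 and 57.8 FPKM in A-iSC and 34.6, 41.6 and 30.8 FPKM in P56-NSC, and its difference of 0.29 ± 0.19 had a limma adjusted p of 0.233. It was higher in A-iSC under 2-fold with scaling by total reads (0.83, limma adjusted p = 0.00528). Aqp4, the water channel of astrocyte endfeet, was at 69.3, 71.1 and 137 FPKM against 60.2, 64.2 and 61 FPKM, with a difference of 0.50 ± 0.25 (limma adjusted p = 0.125). It was called at 2-fold with scaling by total reads (1.05, limma adjusted p = 0.00692). Without A-iSC 3 the difference was 0.18, under 2-fold, with a limma adjusted p of 0.039. Mlc1 was at 266 ± 93 FPKM against 393 ± 21.3 FPKM and was not called, and Aldh1l1, a folate enzyme used as a general astrocyte marker, was higher in A-iSC under 2-fold (70.6 ± 5.76 against 49 ± 7.36 FPKM) and called at 2-fold with that scaling (1.07).

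Genes known from reactive astrocytes, the state astrocytes take after injury, were nearly all higher in A-iSC. Of 29 tested, 27 were higher and 1 lower, with a median of 2.59; 10 of the 29 had passed the minimum through A-iSC alone. Vim, vimentin, was at 1243, 1131 and 741 FPKM in A-iSC and 41.7, 36 and 46.6 FPKM in P56-NSC, a difference of 4.59 ± 0.21 (limma adjusted p = 2.21e-06). Cd44, a hyaluronan receptor, was at 34.5, 28.3 and 31 FPKM against 0.425, 0.506 and 0.672 FPKM, and Serpina3n, a protease inhibitor, at 179, 283 and 393 FPKM against 16.8, 18.9 and 19.1 FPKM. In all 3 genes the groups lay far apart, although Serpina3n was more than 2-fold higher in A-iSC 3 than in A-iSC 1. Complement C3 and the prostaglandin enzyme Ptgs2 were at 17.9 and 13.3 FPKM against 2.20 and 0.141 FPKM. Lcn2, lipocalin, was at 9.65 ± 2.33 FPKM against 0.131 ± 0.0714 FPKM and Osmr, the oncostatin M receptor, at 7.09 ± 1.31 against 0.334 ± 0.0289 FPKM. The gene in the other direction was Amigo2, an adhesion protein, at 1.12 against 5.71 FPKM. Fkbp5 was lower under 2-fold (2.18 against 4.32 FPKM). The median, which was taken over members that passed the minimum, stood at 2.77 with quantile normalization and 2.96 with scaling by total reads. Macrophages also express some of these genes, such as Cd14 (34.7 against 11.1 FPKM) and Srgn (17.6 against 3.02 FPKM), and their part in the list was not tested.

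**Figure D3:**
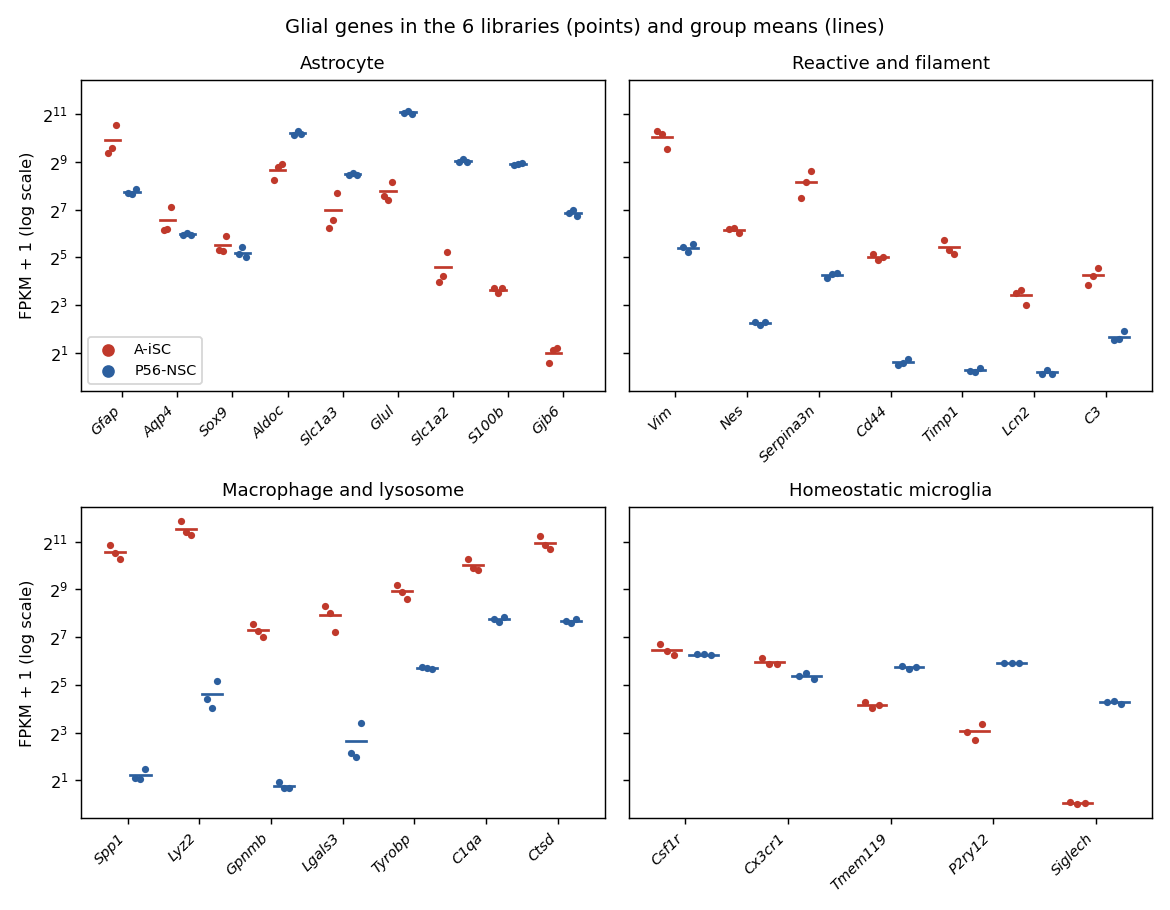
FPKM + 1 (log axis) of astrocyte, reactive, macrophage and homeostatic microglia genes in 4 panels; points are the 3 libraries of A-iSC (red) and P56-NSC (blue) and lines the group means. Gfap, Vim, Nes and Lyz2 lie higher in every A-iSC library, while S100b and Slc1a2 lie higher in every P56-NSC library.

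Stem and progenitor markers went both ways. Of 21 tested, 4 were higher in A-iSC, 3 were lower and the median was 0.12, and 1 had passed through A-iSC alone. Over all genes 9.93% were higher and 16.8% lower, and the lower count was near that share. Nes, nestin, was at 72.2, 73.7 and 64.4 FPKM in A-iSC and 3.91, 3.48 and 3.90 FPKM in P56-NSC, a difference of 3.90 ± 0.1 (limma adjusted p = 1.99e-07). Every A-iSC library was far above every P56-NSC library. Fabp7, the fatty acid binding protein of radial glia, was at 495 ± 61.7 FPKM against 62.7 ± 0.814 FPKM, and Tnc, tenascin C of the stem cell niche, at 29.2 ± 3.77 against 0.316 ± 0.0624 FPKM. Sox2 was higher in A-iSC under 2-fold, at 210.4, 234 and 180.5 FPKM against 109, 119 and 94 FPKM (difference 0.95 ± 0.14, limma adjusted p = 0.000906). It was called at 2-fold without A-iSC 3 (1.05) or P56-NSC 2 (1.03), and with quantile normalization (1.21), and also with scaling by total reads. Pax6, which is needed in radial glia, was also higher under 2-fold, at 4.06, 3.64 and 4.70 FPKM against 2.60, 2.90 and 2.77 FPKM, and missed the threshold without P56-NSC 1 (limma adjusted p = 0.0524).

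The markers lower in A-iSC were Hes5, a Notch effector of stem cells, at 8.85, 9.16 and 5.64 FPKM against 19.7, 24.3 and 15.5 FPKM, Hopx, a marker of quiescent stem cells and astrocytes, at 25 ± 5.82 against 67.4 ± 4.90 FPKM, and Lpar1, a lysophosphatidic acid receptor, at 10.3 ± 0.775 against 54.1 ± 3.81 FPKM. With scaling by total reads 1 marker was lower in place of 3. The intervals of Sox3, Egfr, Msi1 and Dcx lay within 1.5-fold. Dcx, doublecortin of migrating neuroblasts, was at 2.87, 2.67 and 3.04 FPKM in A-iSC and 3.21, 3.78 and 3.02 FPKM in P56-NSC, and the receptor gene Egfr, which marks activated stem cells, was at 3.94 ± 0.608 and 3.55 ± 0.590 FPKM.

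Cell cycle genes were low in both groups, and few mitosis genes were called at 2-fold. Of 27 mitosis genes 19 passed the minimum, and 1 of them was called higher, against 9.93% of all genes: Cdk1, the kinase that starts mitosis, at 3.80, 3.79 and 3.27 FPKM against 0.701, 1.14 and 0.861 FPKM. Leaving out A-iSC 3 or P56-NSC 2 made it 2 genes, and scaling by total reads made it 10. The median of the 19 was 0.66, and 1 of them had passed through A-iSC alone. Mki67, the proliferation antigen, was at 3.91, 3.69 and 4.10 FPKM in A-iSC and 1.48, 1.75 and 1.36 FPKM in P56-NSC, higher by 0.96 ± 0.10 (limma adjusted p = 0.00014) and under 2-fold on this scale. It was called at 2-fold with a pseudocount of 0.1 (1.30), with scaling by total reads (1.32) and without P56-NSC 2 (1.02). Of 27 DNA replication genes tested, 4 of which had passed through A-iSC alone, 3 were higher, near the 9.93% of all genes, and 0 lower. These 3 were Mcm6, Cdt1 and Rfc3, with Mcm6, a helicase subunit, at 9.17 against 3.62 FPKM. The call of Rfc3 was lost without A-iSC 1, A-iSC 2, P56-NSC 1 or P56-NSC 3 (0.89 to 0.99). The intervals of 11 of the 27 lay within 1.5-fold. The p53 target and senescence list differed more: 14 of its 20 genes, 5 of which had passed through A-iSC alone, were higher and 0 lower, with a median of 1.64. Cdkn1a, which encodes p21, was at 75.2, 75.7 and 57.9 FPKM against 10.7, 7.17 and 14.1 FPKM. The inhibitor genes Cdkn2a and Cdkn2b were at 8.09 ± 1.70 and 9.78 ± 1.42 FPKM against 0.135 ± 0.0739 and 0.637 ± 0.173 FPKM. Cdkn1c, a cycle inhibitor counted in another list, was lower, at 1.92 ± 0.667 against 7.47 ± 1.86 FPKM. Igfbp3, an insulin-like growth factor binding protein, was at 70.2 ± 22.9 against 1.83 ± 0.199 FPKM, and Bax, a death effector, at 92.4 ± 29 against 22.1 ± 0.525 FPKM.

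Genes of microglia and macrophages were higher in A-iSC in nearly all cases. Of 26 tested, 24 were higher and 0 lower, with a median of 2.95, and 7 of the 26 had passed through A-iSC alone. The complement chain C1qa was at 1248, 948 and 891 FPKM in A-iSC and 218, 196 and 226 FPKM in P56-NSC (difference 2.25 ± 0.16, limma adjusted p = 1.80e-05). Tyrobp, the adaptor of myeloid receptors, was at 584, 472 and 385 FPKM against 52.3, 50.6 and 49.8 FPKM, and Aif1, which encodes IBA1, at 41.6 ± 6.04 against 7.35 ± 0.259 FPKM. Trem2, a lipid receptor of microglia, was low in both groups at 2.22 ± 0.566 and 0.456 ± 0.0857 FPKM, and its 2-fold call was lost without A-iSC 1 (0.99). Among genes of phagocytic macrophages, the lectin receptor Clec7a was at 46 against 1.15 FPKM, the scavenger receptor Msr1 at 12.5 against 0.0782 FPKM, and Ms4a7 at 27.5 against 0.157 FPKM. The macrophage markers Itgax and Mrc1 did not pass the minimum. Axl had an interval within 1.5-fold (41.9 against 36 FPKM), and Cd74, the invariant chain, was not called (4.49 against 9.43 FPKM). Apoe, made by astrocytes and macrophages, was at 11922, 11939 and 8835 FPKM in A-iSC, its highest named gene outside the mitochondrial genome, and at 3664, 3892 and 3777 FPKM in P56-NSC. Its 2-fold call was lost when genes under the minimum were tested too (limma adjusted p = 0.127).

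Genes that mark microglia at rest in the brain divided, with more lower than higher in A-iSC. Of 15 tested, 2 were higher and 7 lower, with a median of -0.88, and 2 had passed through P56-NSC alone. P2ry12, an ADP receptor of resting microglia, was at 7.19, 5.48 and 9.23 FPKM in A-iSC and 60.3, 60.0 and 60.3 FPKM in P56-NSC (difference -2.91 ± 0.16, limma adjusted p = 5.56e-06). Tmem119 was at 16.8 ± 1.56 against 52.2 ± 2.40 FPKM, and Siglech was at 0.0733, 0 and 0.0441 FPKM in A-iSC and 18.6, 19.2 and 17.6 FPKM in P56-NSC. Csf1r, the growth factor receptor that microglia need, had an interval within 1.5-fold, at 104, 83.9 and 74.3 FPKM against 77.1, 77.3 and 74.2 FPKM. So had Sall1 and Ltc4s, at 13.4 and 3.53 FPKM against 14 and 3.91 FPKM. The 2 higher genes were Fcrls, at 265 ± 33.1 against 52 ± 2.29 FPKM, and Olfml3, at 29.7 ± 3.44 against 14.2 ± 0.215 FPKM, whose 2-fold call was lost with median-of-ratios scaling and without A-iSC 1, A-iSC 2, P56-NSC 1 or P56-NSC 2. These 15 genes summed to 737 FPKM in A-iSC and 636 FPKM in P56-NSC, against 20606 and 4735 FPKM for the broader list. In that list Apoe and Lyz2 are the largest terms in A-iSC, and Apoe, at 3777 FPKM, is the largest in P56-NSC. Whether the macrophage genes moved with the share of such cells was not tested.

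Most lysosome genes tested were higher in A-iSC. Of 24 tested, 18 were higher and 0 lower, with a median of 1.69, and 1 had passed through A-iSC alone. Ctsd, cathepsin D, was at 2392, 1839 and 1671 FPKM in A-iSC and 203, 189.7 and 217 FPKM in P56-NSC, a difference of 3.25 ± 0.17 (limma adjusted p = 3.72e-06), and Ctsb, cathepsin B, at 1055, 847 and 827 FPKM against 102, 107 and 105 FPKM. Grn, progranulin, was at 269.8 ± 61.9 against 30.3 ± 0.842 FPKM. Atp6v0d2, a proton pump subunit of osteoclasts and macrophages, was at 10.8, 8.36 and 6.67 FPKM in A-iSC and is listed at 0 in every P56-NSC library. The membrane protein gene Lamp1 and the pump subunit gene Atp6v1a had intervals within 1.5-fold, at 417 against 366 and 33.9 against 33.8 FPKM. Genes that handle lipid showed a similar lean, with 9 of 19 higher and 2 lower. Of these 19, 2 had passed through A-iSC alone and 1 through P56-NSC alone. Plin2, a lipid droplet coat protein, was at 96.7, 84.3 and 78.8 FPKM against 4.61, 4.43 and 4.43 FPKM, Lpl, lipoprotein lipase, at 26.9 ± 5.37 against 0.502 ± 0.0639 FPKM, and the fatty acid transporter gene Cd36 at 11.1 ± 1.81 against 0.200 ± 0.0538 FPKM. The cholesterol exporter Abca1 was at 53.9 ± 31.2 against 13.4 ± 0.969 FPKM. The lower ones were Apod, a lipocalin of glia, at 3.31 ± 0.309 against 254 ± 53.9 FPKM, and the droplet protein gene Plin4, at 0.418 ± 0.0345 against 8.97 ± 0.260 FPKM. Many of these genes are also strong in macrophages, whose marker sum was given above, and the part of those cells in the lysosome and lipid values was not tested.

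Interferon-stimulated genes were higher in A-iSC with 1 exception at 2-fold. Interferons bind surface receptors and act through a complex of factors, STAT2 and IRF9 among them, that binds the interferon-stimulated response element. Of 33 such genes tested, 32 were higher in A-iSC and 0 lower, with a median of 2.63, and Ifi27 was higher under 2-fold, or at 2-fold without A-iSC 1 (1.03) or P56-NSC 3 (1.08). Through A-iSC alone 7 of the 33 had passed the minimum. The 2 groups did not overlap for 33 of 33, against 68.7% of all genes. To show the element in place, promoter windows running from 250 bases before to 50 after the start of transcription were taken from RefSeq (GRCm38.p6, strand of the gene). Windows were found for 22 of the 33 genes, and 16 of these (72.7%) held the element, searched as 2 copies of GAAA with 2 bases of any kind between them, on either strand (TTTC on the other), against 3.75% of the 10292 tested genes with a window. Among windows of all genes called higher the share was 9.47%, and among those called lower 3.09%. Capitals mark the element in the windows of Isg15, Bst2 and Ifit1, 3 genes of large difference, where overlapping matches run together.
Isg15 (chr4:156200769-156201068, minus strand): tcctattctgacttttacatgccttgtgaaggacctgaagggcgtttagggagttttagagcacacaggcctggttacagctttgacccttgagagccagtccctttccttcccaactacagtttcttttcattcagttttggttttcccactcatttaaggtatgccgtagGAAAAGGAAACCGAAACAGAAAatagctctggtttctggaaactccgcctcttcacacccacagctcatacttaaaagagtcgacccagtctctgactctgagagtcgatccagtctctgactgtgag
Bst2 (chr8:71537423-71537722, minus strand): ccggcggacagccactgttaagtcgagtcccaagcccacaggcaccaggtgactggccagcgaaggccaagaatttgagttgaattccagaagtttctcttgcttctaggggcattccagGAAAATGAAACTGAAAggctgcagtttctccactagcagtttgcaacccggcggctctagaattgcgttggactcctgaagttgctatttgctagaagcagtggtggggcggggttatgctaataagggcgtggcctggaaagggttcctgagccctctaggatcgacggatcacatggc
Ifit1 (chr19:34640639-34640938, plus strand): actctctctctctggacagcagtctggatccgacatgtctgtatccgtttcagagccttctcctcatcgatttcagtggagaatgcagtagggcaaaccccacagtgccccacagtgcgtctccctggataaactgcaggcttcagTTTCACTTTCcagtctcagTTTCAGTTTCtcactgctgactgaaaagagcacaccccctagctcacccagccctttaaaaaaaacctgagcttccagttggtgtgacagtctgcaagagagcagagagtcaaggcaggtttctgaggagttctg

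Beside these sequences, Isg15, a ubiquitin-like protein, was at 223, 179 and 120.4 FPKM in A-iSC and 1.97, 1.42 and 6.39 FPKM in P56-NSC, a difference of 5.50 ± 0.42 (limma adjusted p = 2.48e-05). Bst2, tetherin, which holds viruses at the cell surface, was at 493, 391 and 286 FPKM against 10.6, 7.66 and 15.7 FPKM (difference 5.01 ± 0.28). Ifit1, which binds foreign RNA, was at 75.7, 60.8 and 56.6 FPKM against 1.32, 0.540 and 2.72 FPKM (difference 4.78 ± 0.30). In all 3 genes A-iSC 3 had the lowest A-iSC value and P56-NSC 3 the highest P56-NSC value, and the groups still lay far apart. Irf7, the factor that amplifies interferon production, was at 79.7, 65 and 40.3 FPKM against 0.992, 0.264 and 2.09 FPKM, and its window held no match, which says only that these letters are not in it. The 2 factors named above had smaller differences: Stat2 was at 20.1 ± 6.50 against 3.17 ± 0.266 FPKM and Irf9 at 14.5 ± 0.766 against 2.63 ± 0.399 FPKM. Among antiviral effectors, Oasl2 was at 29.8 against 0.821 FPKM, Usp18, a brake on the receptor, at 20.7 against 0.998 FPKM, and Ifitm3, a membrane restriction factor, at 489 ± 173 against 33.7 ± 10.3 FPKM. P56-NSC 3 had the highest P56-NSC level for 30 of the 33 genes, and A-iSC 3 the lowest A-iSC level for 21. Both libraries also deviated with gene length, as given above, and the part of that in these ranks was not tested. The summed microglia and macrophage markers were also higher in A-iSC. Over the libraries they ran from 16866 to 23704 FPKM, against 4614 to 4811 FPKM in P56-NSC. Apoe, which astrocytes also make, held 10899 and 3777 FPKM of the mean sums of 20606 and 4735 FPKM. The homeostatic microglia genes summed to 737 and 636 FPKM. The part of microglia and macrophages in the interferon, antigen presentation and complement values was not tested.

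**Figure D4:**
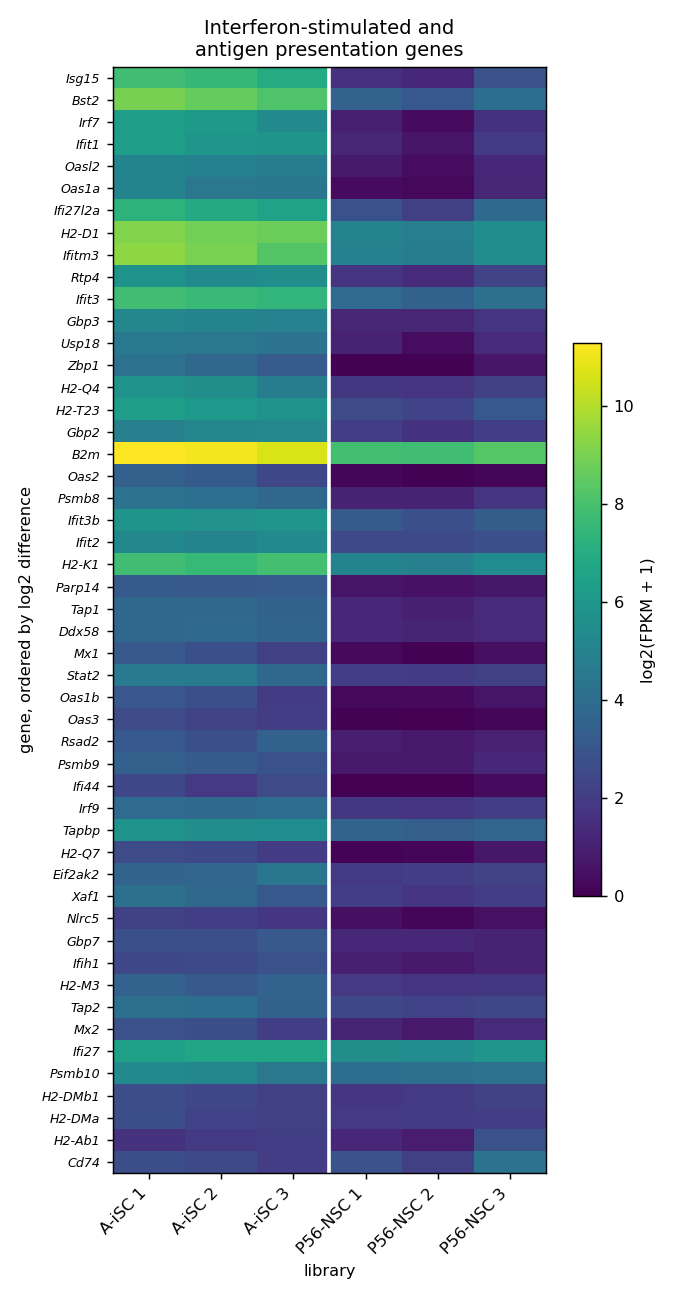
Level of 32 interferon-stimulated and 18 antigen presentation genes (rows, ordered by their log2 difference) in the 6 libraries (columns), as log2(FPKM + 1) by colour, yellow highest. The A-iSC columns are brighter for every interferon-stimulated gene drawn, and the class II gene Cd74 at the foot is not.

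The antigen presentation genes called higher in A-iSC belong to the class I pathway. Of 18 genes tested, 13 were higher and 0 lower, with a median of 2.03, and 2 had passed through A-iSC alone. B2m, the light chain of class I, was at 2482, 2136 and 1617 FPKM in A-iSC and 234, 223 and 313 FPKM in P56-NSC, and the heavy chain H2-D1 at 489 ± 69 against 34.6 ± 9.10 FPKM. The peptide transporter gene Tap1 and the proteasome gene Psmb8 were at 12.1 and 16 against 1.31 and 1.54 FPKM. Of class II, H2-Ab1 was not called (2.01, 2.82 and 3.30 against 1.46, 0.825 and 5.93 FPKM), and H2-Aa and H2-Eb1 did not pass the minimum. Of 14 complement genes, 10 were higher and 2 lower, with 1 that had passed through A-iSC alone and 1 through P56-NSC alone. The receptor C3ar1 was at 58.2 against 2.29 FPKM, the receptor C5ar1 at 18.2 against 0.966 FPKM and properdin, Cfp, at 34.1 against 2.81 FPKM. Those lower were the chaperone clusterin, Clu, at 494 against 1048 FPKM, and the inhibitor Cd55, at 0.362 against 2.24 FPKM, and without A-iSC 1 the count was 1. Of 21 chemokine and cytokine genes 7 were higher and 3 lower, with 3 that had passed through A-iSC alone and 2 through P56-NSC alone, and 11 were higher without A-iSC 3. Ccl5 and Cxcl16 (21.5 against 1.02 FPKM) led the first, and the alarmin Il33 the second, at 2.61, 2.75 and 4.15 FPKM against 77.2, 75.8 and 76.4 FPKM. Ccl3 and Ccl4, chemokines of activated microglia, were not called, at 45.7, 36.1 and 16.7 against 19.2, 10.6 and 26.6 FPKM and 25.6, 19.3 and 8.87 against 13.5, 7.83 and 16.5 FPKM, but Ccl3 was called higher without A-iSC 3 (1.16).

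Matrix genes were mostly higher in A-iSC. Of 30 extracellular matrix genes tested, 20 were higher and 3 lower, with a median of 1.26, and 11 of the 30 had passed through A-iSC alone. Fn1 and the thrombospondin gene Thbs1 were at 60.1, 58.7 and 80.1 and 22.9, 18.7 and 15.3 FPKM in A-iSC, against 0.375, 0.400 and 0.587 and 0.398, 0.390 and 0.640 FPKM in P56-NSC. Collagens of types V, VI, XI and XII followed, with Col6a1 at 7.12 against 0.329 FPKM and Col11a1 at 6.40 against 0.423 FPKM. Lama5, a laminin chain, was at 14.8 ± 2.10 against 2.12 ± 0.103 FPKM. The 3 lower were Sparc (329 against 734 FPKM), Col1a2 (1.03 against 3.21) and Lamb1 (0.347 against 1.98), and none was lower at 2-fold with quantile normalization or scaling by total reads. The call of Sparc was also lost without P56-NSC 2 (-0.95) and that of Col1a2 without P56-NSC 3 (-0.97). Fibroblast collagen Col3a1 did not pass the minimum. The matrix of the brain itself divided, with 4 of 12 genes higher and 6 lower, of which 3 and 2 had passed through A-iSC alone and P56-NSC alone. The proteoglycan neurocan, Ncan, was at 97.1 ± 8.95 against 41.3 ± 4.85 FPKM, and brevican, Bcan, at 53.5 ± 4.20 against 219 ± 16.7 FPKM. The link protein gene Hapln2, known from nodes of myelinated axons, was at 0.0516 ± 0.0451 against 79.7 ± 10.6 FPKM, and Sparcl1, hevin, an astrocyte protein, at 189.6 ± 60.0 against 1888 ± 255 FPKM.

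Genes of the contractile cytoskeleton had a similar lean. Of 21 actin and SRF target genes, 11 were higher and 0 lower, with a median of 1.34. Tagln2 was at 78.5 against 12.9 FPKM, Msn, moesin, at 102 against 13 FPKM and filamin, Flna, at 46.9 against 9.64 FPKM. Smooth muscle actin, Acta2, was at 58.6, 40.9 and 25.5 FPKM against 5.22, 3.92 and 14.1 FPKM, while the smooth muscle genes Tagln and Myh11 did not pass the minimum. Of 19 YAP and TEAD targets, genes read as a sign of stretch and stiffness, 7 were higher and 1 lower. Ccn2 was at 45.7, 47.2 and 26.1 FPKM against 0.644, 0.436 and 1.34 FPKM and Ccn1 at 117, 106 and 53.5 FPKM against 18.7, 14.6 and 21 FPKM. Yap1 itself had an interval within 1.5-fold (9.60 ± 0.995 against 8.68 ± 0.123 FPKM). Its relative Wwtr1 was higher (31.7 ± 4.41 against 13.7 ± 0.230 FPKM).

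For the signalling pathways, the shares of all genes to set beside the counts were 9.93% higher and 16.8% lower. The count of Notch genes higher and that of Wnt targets lower were near these shares. BMP targets showed both directions. Of 14 tested, 7 were higher and 4 lower, with 2 that had passed through A-iSC alone and 1 through P56-NSC alone. Id1 and Id3, inhibitors of bHLH factors and direct BMP targets, were at 228, 190.4 and 129.8 and 249, 243 and 179.9 FPKM in A-iSC and at 14.5, 13.9 and 13.7 and 20.9, 25.2 and 16.6 FPKM in P56-NSC, differences of 3.58 ± 0.20 and 3.36 ± 0.19. Atoh8 was at 22.3 ± 7.91 against 0.692 ± 0.170 FPKM and the antagonist noggin, Nog, at 17.5 ± 1.80 against 4.41 ± 0.538 FPKM. Id4 was lower, at 43.8 ± 6.25 against 105 ± 6.65 FPKM, and so was Smad7, a feedback inhibitor, at 4.35 ± 0.836 against 14.7 ± 1.74 FPKM. Smad6, also an inhibitory Smad, went the other way, at 6.33 ± 1.55 against 0.902 ± 0.281 FPKM. Of 10 Hedgehog genes, 0 were higher and 3 lower, 2 having passed through P56-NSC alone, and these 3 are direct targets: Ptch1 was at 2.32, 2.75 and 4.95 FPKM against 17.5, 22.7 and 13.3 FPKM, Gli1 at 0.368, 0.421 and 0.381 FPKM against 7.55, 8.81 and 6.28 FPKM and Hhip at 0.0532 ± 0.0139 against 4.38 ± 0.162 FPKM. The transducer Smo was higher under 2-fold (18 against 12.8 FPKM) and Sufu had an interval within 1.5-fold. With scaling by total reads 3 Hedgehog genes were called higher. Of 21 Notch genes 2 were higher and 6 lower, with 2 that had passed through P56-NSC alone, and without P56-NSC 3 the higher count was 1. Besides Hes5, the targets Nrarp and Heyl were lower, at 1.64 ± 1.01 and 0.221 ± 0.0956 FPKM against 12.3 ± 2.10 and 6.38 ± 2.13 FPKM, and the ligand Jag1 was higher, at 5.67 ± 0.424 against 2.09 ± 0.592 FPKM, a 2-fold call that was lost without P56-NSC 3 (0.96). Of 12 Wnt targets 4 were higher and 2 lower, 3 having passed through A-iSC alone and 1 through P56-NSC alone, with Axin2 at 7.90 ± 1.26 against 2.97 ± 0.439 FPKM and Nkd1 at 1.83 ± 0.191 against 11.9 ± 0.417 FPKM.

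Energy genes differed by compartment. The shares of all genes to set beside these counts were 9.93% higher and 16.8% lower. Of 13 genes of the mitochondrial genome 12 were lower in A-iSC and 0 higher, with a median of -2.47, or -0.84 and 6 lower with quantile normalization. Subunit mt-Co1 was at 16299, 12817 and 7897 FPKM against 47105, 54740.3 and 46056 FPKM. Nuclear genes of oxidative phosphorylation were mostly not called at 2-fold: 4 of 38 were lower, 0 higher, and 14 had intervals within 1.5-fold. Their median was -0.37, and it was 0.16 with scaling by total reads. Of 20 glycolysis genes 3 were higher and 3 lower, and 10 were higher with scaling by total reads. Ldha, lactate dehydrogenase, was at 148, 201 and 203 FPKM against 39.2, 40.9 and 42.1 FPKM, and Hk2, hexokinase, at 8.85 ± 0.271 against 2.25 ± 0.162 FPKM. Gapdh was called at 53.9, 70.8 and 1.99 FPKM against 1.77, 1.49 and 1.47 FPKM, with A-iSC 3 at the P56-NSC level. That call was lost without any 1 of A-iSC 1, A-iSC 2, P56-NSC 1, P56-NSC 2 and P56-NSC 3 (limma adjusted p from 0.0842 to 0.125), and the value is uncertain because the genome holds many near-identical copies of the gene. Of 21 cholesterol synthesis genes 4 were lower, near the share of all genes, and 0 higher. Their median was -0.40, which turned to 0.15 with scaling by total reads.

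Among stress lists, ER stress and NRF2 target genes leaned toward A-iSC, with medians of 0.71 and 0.56. Hypoxia and immediate early genes went both ways, with medians of 0.40 and -0.01. Over all genes 9.93% were higher and 16.8% lower at 2-fold. Of 23 ER stress and amino acid response genes 10 were higher and 1 lower, and 2 had passed through A-iSC alone. The chaperone BiP, Hspa5, was at 185 ± 20.7 against 58.7 ± 5.73 FPKM, the factor Atf3 at 35.4, 33.3 and 21.4 FPKM against 5.03, 4.37 and 5.33 FPKM and Sesn2, a sestrin, at 19.6 ± 4.46 against 3.64 ± 0.498 FPKM. The lower gene was Psat1, of serine synthesis (29 ± 7.37 against 137 ± 5.65 FPKM). Of 20 metallothionein and NRF2 target genes 8 were higher and 1 lower. Hmox1, heme oxygenase, was at 297, 251 and 155 FPKM against 7.47, 6.48 and 8.43 FPKM, a difference of 4.76 ± 0.24 (limma adjusted p = 3.00e-06), and Nqo1 was at 29.7 ± 5.93 against 7.57 ± 0.676 FPKM. The ferritin light chain, Ftl1, was higher (1424 ± 672 against 172 ± 14.1 FPKM) and the heavy chain, Fth1, lower (1209 ± 388 against 2973 ± 223 FPKM), with the reserve that both have near-identical copies. Of 25 hypoxia genes 6 were higher and 4 lower, with 1 that had passed through A-iSC alone and 1 through P56-NSC alone. Vegfa was at 52.6 ± 18.3 against 23.4 ± 1.38 FPKM, with its 2-fold call lost without A-iSC 2 (0.82), Egln3 at 26.2 ± 7.52 against 3.65 ± 0.614 FPKM and Ndrg1, which oligodendrocytes also express, at 6.44 ± 0.133 against 65.5 ± 5.65 FPKM. Of 16 immediate early genes 5 were higher and 4 lower, and 3 were higher without A-iSC 1. Through P56-NSC alone 2 of the 16 had passed the minimum. Fos, which lost its 2-fold call without A-iSC 1 (0.99), was at 153, 113 and 82.8 FPKM against 50.1, 43 and 52.1 FPKM, and the neuronal activity gene Arc at 1.93 ± 0.486 against 16.3 ± 1.56 FPKM. Jun had an interval within 1.5-fold (68.9 against 74.5 FPKM).

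Genes of regional identity were mixed, beside 9.93% of all genes higher and 16.8% lower at 2-fold. The counts higher in the forebrain and the chromatin lists were near that share. Of 18 forebrain patterning and proneural genes 2 were higher, Otx1 among them, and 6 were lower, with 1 that had passed through A-iSC alone and 3 through P56-NSC alone. Lhx2 was lower at 15 ± 1.45 against 36.4 ± 2.48 FPKM, and Dlx1, of inhibitory neuron precursors, at 5.83 ± 1.35 against 16.6 ± 1.26 FPKM. Neurod2, of excitatory neurons, is listed at 0 in all A-iSC libraries and was at 1.32, 1.29 and 1.58 FPKM in P56-NSC. Of 7 hindbrain and Hox genes tested, Hoxa2 was higher (2.07, 1.82 and 1.13 against 0, 0 and 0.0342 FPKM), having passed through A-iSC alone. The midline factors Zic1 and Zic2 were lower (4.91 ± 0.345 and 11.3 ± 1.23 against 42.3 ± 0.633 and 23.7 ± 0.474 FPKM), and without A-iSC 3 the lower count was 1. Of 6 mesenchymal transition factors 3 were higher (Twist1, Foxc1 and Runx1, all under 4 FPKM), each of which had passed the minimum through A-iSC alone, and Zeb2 was lower, a 2-fold call that was lost without A-iSC 1 (-0.96) or A-iSC 2 (-0.90). Of 15 chromatin and imprinted growth genes 2 were higher, Hmga1 at 53.7 ± 8.23 against 18.7 ± 2.10 FPKM and the imprinted RNA H19 at 3.05 ± 1.32 against 0.0736 ± 0.0431 FPKM, which had passed through A-iSC alone. Of this list 1 gene was lower, Cdkn1c, or 2 without A-iSC 3 or P56-NSC 3.

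**Figure D5:**
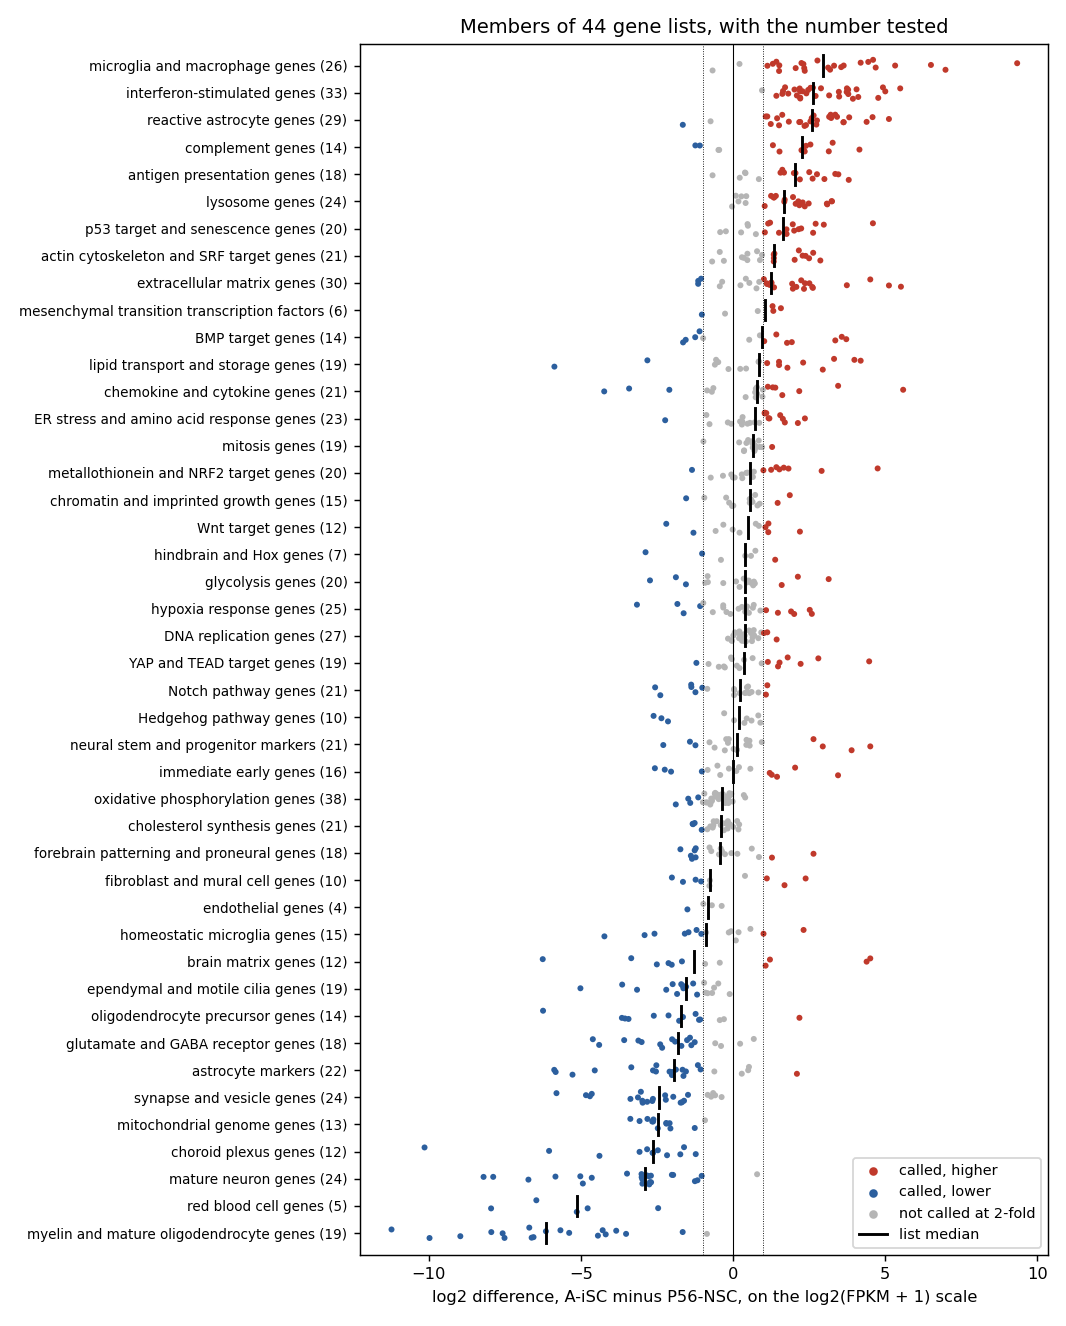
Log2 difference (A-iSC minus P56-NSC) of the tested members of each of the 44 gene lists, 1 point a gene, red or blue where called higher or lower at 2-fold and grey where not, with a black bar at the list's median and dotted lines at 2-fold. The interferon, macrophage and reactive astrocyte lists have medians of 2.63, 2.95 and 2.59, and the myelin, red blood cell and mature neuron lists medians of -6.15, -5.14 and -2.90.

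Outside the mitochondrial genome, the most abundant transcripts of the groups differed. In A-iSC, after Apoe and Lyz2, the highest such genes were Eef1a1, B2m, Cst3, Ctsd, Tmsb4x, Spp1, Rplp1 and Ftl1. In P56-NSC they included Mbp, Cpe, Apoe, Cst3, Fth1, Rplp1, Mobp, Ttr and Glul. Cst3, a secreted protease inhibitor, was lower in A-iSC under 2-fold (2010.1 ± 248 against 3624 ± 97 FPKM), with a difference of 0.40 and no call under quantile normalization (limma adjusted p = 0.268). Of 5840 genes at a mean of 10 FPKM or more in either group, 1237 had intervals within 1.5-fold, 778 were called higher and 1226 lower.

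Levels in the other groups of the series are set beside the comparison without a test. In AST, the astrocytes before incubation, Spp1 was at 270.2 ± 36.1 FPKM (SD, n = 3), Lyz2 at 321 ± 22.6, Vim at 2186 ± 466, Nes at 196 ± 13.4, Gfap at 29.9 ± 2.30, Mki67 at 15.1 ± 0.562, Isg15 at 166 ± 54.6 and Mbp at 0.295 ± 0.0153 FPKM. In P0-NSC, the same genes were at 21.1 ± 4.33, 14.1 ± 5.57, 142 ± 27, 26.9 ± 0.914, 60.6 ± 14.5, 10.3 ± 1.84, 2.62 ± 0.782 and 1.85 ± 0.136 FPKM in that order.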

How the data were processed

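Total RNA was isolated with Trizol and 3 µg per sample went into a NEBNext Ultra library, per the labels' protocols; whether strand was kept is not stated, so overlapping antisense genes cannot be told apart. The authors deposited their values as FPKM for each gene and library. Per the submitters' processing notes, the tool Bowtie was version 0.12.2 and the builds named were mm8 with mm9, while 99.5% of the gene identifiers shared with GENCODE M21 carry its GRCm38 coordinates. Multiplied by gene length, 100% of FPKM values were whole reads to within 0.01, and how the authors scaled libraries is not given here. Unnamed entries, with 0.114% to 0.137% of reads, were left out.

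For the 6 libraries limma 3.58.1 (R 4.3.3, with the package data.table in version 1.17.8) fitted log2(FPKM + 1), 1 mean per group and a spread that follows the mean, with Benjamini-Hochberg adjustment over 14175 genes. The same fit was first run on simulated data, with known changes put into a small share of genes and both groups otherwise at A-iSC levels. That setting differs from these data, where 61.5% of genes passed at any fold, so it does not bear on the calls here. Tables and figures used Python 3.11.15, numpy 2.4.6, pandas 2.3.3 and matplotlib 3.10.9. The pseudocount is 1 and the minimum 1 FPKM in 3 libraries. The genes compared and the 44 gene lists (897 genes, 49 of them in 2 or more lists) were chosen with earlier results of these data known, and counts over a list are descriptions. Named genes were the 15 called genes of largest difference in each direction among those at 10 FPKM or more whose groups do not overlap, the 10 of highest level in each group, up to 4 called members of each list in each direction, and 16 markers such as Nes, Sox2 and Gfap. Members that were not called are named as such. Other called list members are named for their role, chosen after their values were seen. Groups and replicate numbers came from the sample titles. Replicates differed by more than counting noise: chi-square divided by its degrees of freedom was 6.33 to 96.5. Values of genes with near-identical copies (Gapdh, ferritins, globins, ribosomal proteins, Eef1a1, Ifit3 and Ifit3b, class I H2 genes) are uncertain. Alternatives changed the pseudocount, the minimum, the libraries fitted, the scaling, the prior, gene length, the replicate block and each single library, and voom was run on the recovered reads. After the data were seen, scaling by total reads outside the mitochondrial genome was added. Some genes are not reported here by name.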

Additional observations from a re-analysis of the deposited data

How the results depend on the processing

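Of 3795 genes called at 2-fold, the count was 2196 when genes had to reach 1 FPKM in all 6 libraries, a setting that tests 11231 genes, and 4723 with a pseudocount of 0.1, 4779 with voom on the recovered reads and 4642 with scaling by total reads. Leaving out 1 library at a time gave 3646 to 4116 genes at 2-fold, 7300 to 10609 at any fold and 2564 to 4542 within 1.5-fold; the lowest 2-fold count came without A-iSC 1 and the highest without A-iSC 3. Genes held within 1.5-fold numbered 17052 of 30903 with no minimum, where most added genes lie near 0, and 2096 with scaling by total reads. Replicate numbers did not pair the libraries, with correlations of same-numbered deviations of -0.042, -0.099 and -0.190; a fit with a replicate block called 3794 genes at 2-fold, 8086 at any fold and 3293 within 1.5-fold. Of 232 named genes, 221 kept their direction and their side of the adjusted p threshold, at any fold, in every setting run. The 2-fold call held in every setting for 192, was lost in at least 1 setting for 36 and was gained for 4, which were Eef1a1, Sox2, Aqp4 and Mki67. Scaling by total reads ended 29 calls, all of genes lower in A-iSC, and leaving out 1 library ended 15. The differences of Cst3 and Rplp1 turned to 0.40 and 0.19 with quantile normalization, neither called, and the cause was not tested. Idi1, Cpe and Fosb missed the adjusted p threshold in at least 1 setting, and Eef1a1 and Sox9 passed it under 2-fold with scaling by total reads. List medians of cholesterol synthesis and oxidative phosphorylation changed sign with scaling by total reads, those of immediate early genes in several settings. Depth limits low genes, since 1 read in 1 kb is worth up to 0.0623 FPKM.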

Other observations

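Among genes that the deposited table assigns to a transcription factor family, 883 were tested, and 84 were higher and 92 lower in A-iSC at 2-fold. Of all genes tested, 9.93% were higher and 16.8% lower. The bZIP family, which holds the stress factors ATF and the CEBP proteins of myeloid and glial cells, had 13 of 42 members higher and 4 lower, and the zinc finger family zf-C2H2 had 12 of 400 higher and 30 lower. Of bHLH factors 10 of 56 were higher and 11 lower, of homeobox factors 6 of 47 higher and 11 lower, and of ETS factors 5 of 17 higher and 2 lower. The following factors were chosen after their values were seen. The macrophage factor Spi1 (PU.1) was at 55.2, 41.9 and 23.7 FPKM in A-iSC and 5.66, 5.99 and 5.90 FPKM in P56-NSC, and Irf8, which microglia need, was at 17.9 ± 1.41 against 3.10 ± 0.322 FPKM. Cebpd was at 22.7 ± 3.16 against 4.34 ± 0.771 FPKM, and Nfe2l2, which encodes NRF2, at 55 ± 16.1 against 15.8 ± 0.330 FPKM. Myrf, the factor that drives myelin genes, was at 0.185, 0.226 and 0.288 FPKM against 33.3, 32.9 and 35.6 FPKM. Thra, a thyroid hormone receptor, was at 42.4 ± 5.35 against 148 ± 14.4 FPKM.

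Several genes known to respond to glucocorticoid hormone were lower in A-iSC, also chosen after their values were seen. Tsc22d3, which encodes GILZ, was at 5.87, 5.72 and 4.78 FPKM in A-iSC and 86.5, 77.2 and 91.2 FPKM in P56-NSC, a difference of -3.74 ± 0.11 (limma adjusted p = 3.85e-07). Klf9 was at 11.8, 9.62 and 13.3 FPKM against 55.1, 50.7 and 61.8 FPKM, Klf15 at 8.25 ± 1.40 against 34.4 ± 4.45 FPKM, and Sgk1, a kinase, at 28.7 ± 3.54 against 109 ± 28.7 FPKM. Ddit4 was at 46.9 ± 6.15 against 146 ± 12.5 FPKM. Pdk4, a gene of the same kind, was not called (13.7, 14.5 and 19.6 against 16.3, 13.7 and 18.7 FPKM), and Fkbp5 was lower under 2-fold (2.18 ± 0.410 against 4.32 ± 0.837 FPKM). The PAR bZIP factors Hlf and Tef, outputs of the circadian clock, were lower too, at 0.762 ± 0.235 and 14 ± 0.355 FPKM against 26.3 ± 2.10 and 45.7 ± 3.11 FPKM, while their relative Dbp was lower under 2-fold (20.0 ± 5.62 against 37.5 ± 4.74 FPKM) and the clock factor Arntl was not called (2.30 ± 0.327 against 2.25 ± 0.165 FPKM).

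Of genes known to be sex-linked, Xist was at 1.16, 0.865 and 1.07 FPKM in A-iSC and 0.00642, 0.0174 and 0.0169 FPKM in P56-NSC, while the Y-linked Ddx3y was at 9.80, 9.78 and 16.2 and 16, 14.5 and 15.3 FPKM. Reads of both kinds in A-iSC were thus measured in the same libraries.

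The lysosome genes have a known element too, TCACGTGA, the same on both strands, which the factor TFEB binds. It lay in the windows of 4 of 18 lysosome genes with a window (22.2%), against 2.13% of the 10292 tested genes with one, and in 1.46% and 1.43% of the windows of genes called higher and lower. The RefSeq window of Ctsd (GRCm38.p6) is given with the element in capitals.
Ctsd (chr7:142387778-142388077, minus strand): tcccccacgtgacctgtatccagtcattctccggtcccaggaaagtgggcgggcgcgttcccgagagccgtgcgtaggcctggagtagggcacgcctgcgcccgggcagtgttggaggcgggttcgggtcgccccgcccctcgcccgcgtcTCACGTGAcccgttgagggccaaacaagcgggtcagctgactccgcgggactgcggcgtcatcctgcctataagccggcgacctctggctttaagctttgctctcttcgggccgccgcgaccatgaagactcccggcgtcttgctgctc
Ctsd was at 1967 ± 377 FPKM in A-iSC and 203 ± 13.4 FPKM in P56-NSC, and a match is a description and not a shown binding site.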
